A study of Mus musculus with 14 samples.

Results

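The genes described here are the metallothioneins Mt1, Mt2, Mt3 and Mt4, the transcription factor gene Mtf1 and the zinc transporter genes Slc30a1 and Slc39a1, followed across mouse epidermal cells with and without the histone methyltransferase G9a. The 7 genes were listed by name with earlier results of these data known, among them the rise of Mt4 in G9a-deficient bulge cells. Of the 7 genes, 6 had a probe set named for them alone, among 17097 genes measured, and Mt2 was not analysed here. Where a gene had several probe sets, 1 was selected by the highest mean signal over all 14 arrays: for Mt1 (11.72 against 8.90 on the log2 scale), Mtf1 (8.95 against 6.63) and Slc30a1 (7.57 against 7.49). Mt3, Mt4 and Slc39a1 had 1 probe set each.

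All mice were 15 weeks old with skin in homeostasis, and were G9a WT or carried G9a cKO, a conditional knockout of the gene Ehmt2. Bulge cells, from the stem cell niche of the hair follicle, gave 3 WT and 4 cKO arrays, and cells of the interfollicular epidermis (IFE) gave 3 WT and 4 cKO arrays. The Cre driver of the knockout, how the cells were separated and whether each array held a separate animal are not stated in the sources read, so p-values measure the spread between samples only. Values are log2 signals per probe set, and the array medians lay between 5.76 and 5.84.

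Metallothioneins are small cysteine-rich proteins that bind zinc, copper and cadmium, and so buffer free zinc and protect cells from toxic metals and oxidants. When zinc rises, Mtf1 binds metal response elements in DNA and raises transcription of Mt1, Mt2 and of Slc30a1, whose product exports zinc across the plasma membrane. Slc39a1 encodes a zinc importer of the plasma membrane. Mt1 and Mt2 are expressed in most tissues, Mt3 mainly in the brain, and Mt4 in the differentiating layers of stratified squamous epithelia such as the epidermis.

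The 4 metallothionein genes are neighbours on mouse chromosome 8, in the order Mt4, Mt3, Mt2 and Mt1 on RefSeq GRCm38.p6, with no other protein-coding gene between them. RefSeq promoter windows of 300 bases, from 250 before to 50 after the annotated start, matched all 7 genes. They are shown for Mt1 and Mt4, the cluster's genes with the steadiest and the most variable signal on the probe sets used, and for Slc30a1, the exporter under Mtf1. Capitals mark the core of the metal response element, searched as TGCACNC and TGCGCNC on both strands.
Mt4, chr8:94136954-94137253, plus strand, GRCm38.p6: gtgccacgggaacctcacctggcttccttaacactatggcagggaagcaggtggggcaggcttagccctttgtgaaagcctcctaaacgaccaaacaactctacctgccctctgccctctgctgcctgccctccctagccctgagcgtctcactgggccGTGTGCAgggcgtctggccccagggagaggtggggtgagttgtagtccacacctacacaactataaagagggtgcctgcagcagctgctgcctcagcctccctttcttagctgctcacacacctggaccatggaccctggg
Mt1, chr8:94178839-94179138, plus strand, GRCm38.p6: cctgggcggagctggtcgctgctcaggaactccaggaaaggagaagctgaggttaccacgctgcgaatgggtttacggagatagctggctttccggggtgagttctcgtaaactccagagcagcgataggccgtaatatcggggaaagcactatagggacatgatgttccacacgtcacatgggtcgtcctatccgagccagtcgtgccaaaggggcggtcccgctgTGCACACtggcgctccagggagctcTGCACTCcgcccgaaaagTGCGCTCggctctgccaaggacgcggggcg
Slc30a1, chr1:191906531-191906830, plus strand, GRCm38.p6: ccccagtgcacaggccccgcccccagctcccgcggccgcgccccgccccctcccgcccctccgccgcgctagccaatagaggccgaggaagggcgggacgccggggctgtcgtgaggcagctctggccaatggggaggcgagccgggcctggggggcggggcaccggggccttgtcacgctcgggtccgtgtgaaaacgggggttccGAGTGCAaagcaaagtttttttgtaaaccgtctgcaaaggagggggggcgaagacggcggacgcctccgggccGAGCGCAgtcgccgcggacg
The core occurred 1 time in the Mt4 window, on the opposite strand. It occurred 3 times in the Mt1 window, on the strand of the gene, and 2 times in that of Slc30a1, on the opposite strand. The Mt2 window held 4 matches, 2 of them on the strand of the gene, the Mt3 window 1, and those of Mtf1 and Slc39a1 0. At least 1 match was found in 25.7% of the 32851 promoter windows, at least 2 in 7.11%, at least 3 in 1.97% and at least 4 in 0.517%. These are matches of letters in a window set by the annotated start, not measured binding sites. The windows also differed in CpG dinucleotides, with 5 in Mt4, 8 in Mt3, 24 each in Mt1 and Mt2, and 36 in Slc30a1, against a median of 7 over all windows.

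The labels were checked first. A probe set of Ehmt2 read 9.51 to 9.78 on the WT arrays and 5.85 to 6.09 on the cKO arrays, while a second one, from 7.84 to 8.05, did not separate them. In WT skin all 12 markers of bulge stem cells had a higher signal in bulge than in IFE cells. Bulge cKO replicates 2 and 3 stood apart from the other bulge arrays on the first principal component, which held 72.5% of the variance. They lay at -6.9 and -11.3, and the other 5 bulge arrays at -48.2 to -36.7. IFE cKO replicates 2 and 3 lay at 23.3 and 23, and the other 5 IFE arrays at 29.8 to 40.1. The mean of the 12 bulge markers was 7.35 and 7.37 on IFE cKO replicates 2 and 3. It was 6.66 to 6.72 on the other IFE arrays. The bulge differences of the members and of the pathway genes called there are therefore also given without bulge cKO replicates 2 and 3. No fit left out IFE cKO replicates 2 and 3 together.

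Mt4 had the widest range of the members and followed the compartment and, within bulge cells, the genotype. Bulge WT replicates 1 to 3 read 5.56, 5.57 and 5.29, below the array medians. Bulge cKO replicates 1 to 4 read 6.11, 8.75, 8.52 and 7.90. All 4 bulge cKO arrays lay above all 3 bulge WT arrays, but replicate 1 lay close to them and the other 3 close to the IFE range. IFE WT replicates 1 to 3 read 9.55, 8.72 and 8.60, and IFE cKO replicates 1 to 4 read 9.77, 9.52, 9.44 and 10.07. The order of the means was thus bulge WT (5.47 ± 0.16, SD, n = 3), bulge cKO (7.82 ± 1.19, SD, n = 4), IFE WT (8.96 ± 0.52, SD, n = 3) and IFE cKO (9.70 ± 0.29, SD, n = 4). The arrays of bulge cKO and IFE WT overlapped, as did those of IFE WT and IFE cKO.

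**Figure D1:**
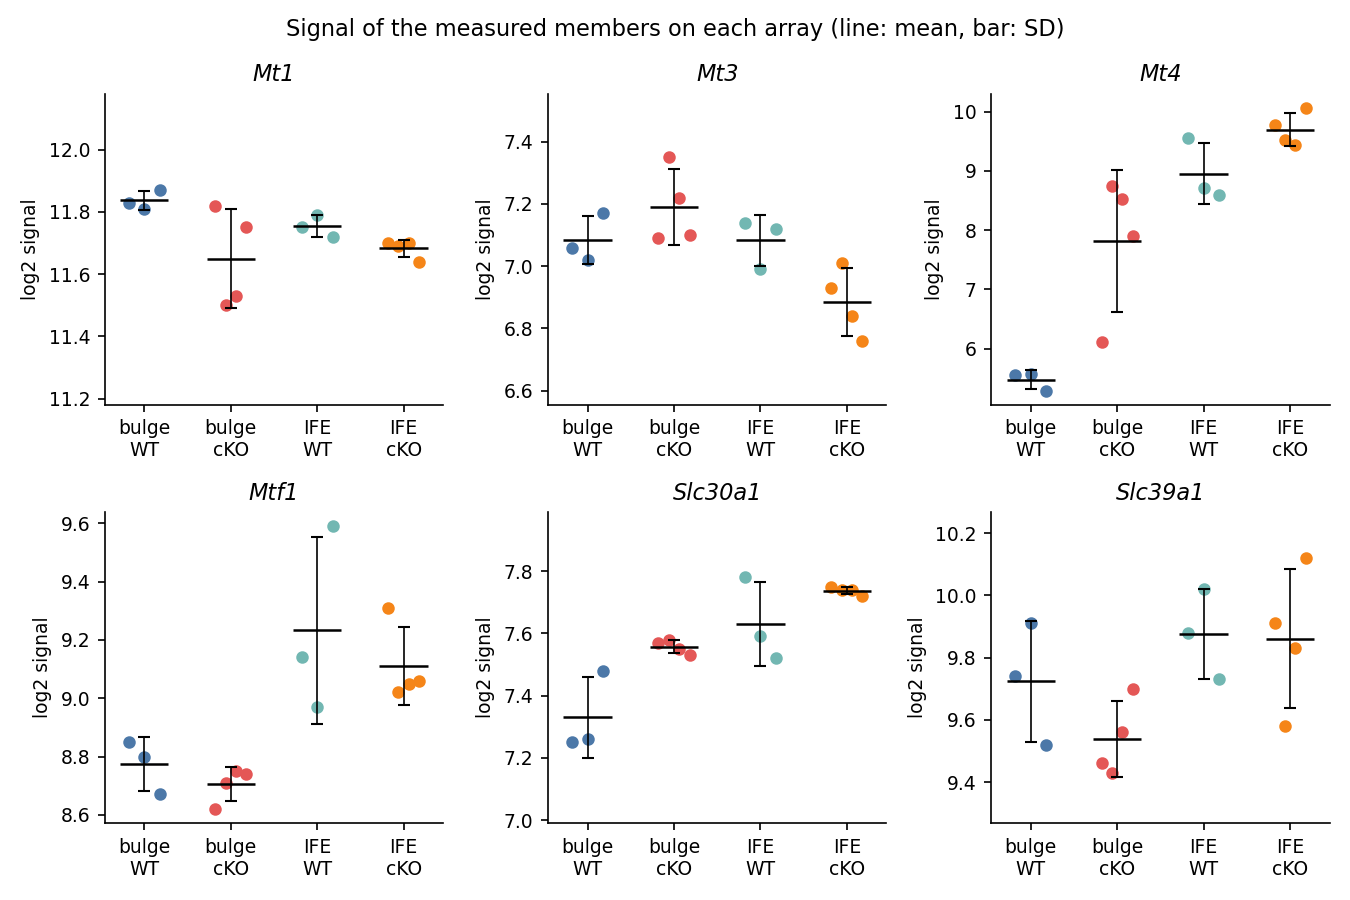
Log2 signal of the 6 measured members (vertical axes, a scale for each gene) on every array, by group (horizontal axes), with the group mean as a line and the SD as a bar. Mt4 spans 5.29 to 10.07, with bulge cKO arrays from 6.11 to 8.75, whereas Mt1 stays between 11.50 and 11.87 on all arrays.

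In bulge cells Mt4 was higher in cKO by 2.35 on the log2 scale, a difference known when the genes were chosen and given here without a test. It was 1.53 without bulge cKO replicates 2 and 3, and ranged from 2.04 to 2.91 when 1 array at a time was left out. Because the WT level lay below the array medians and was not tested against background, no fold is given. In IFE cells the difference between cKO and WT was 0.74 (SE 0.50, 95% interval -0.34 to 1.82, limma adjusted p = 0.659). Calls throughout are at an adjusted p under 0.05, which this difference did not reach. The bulge difference exceeded the IFE difference by 1.61, or by 0.79 without bulge cKO replicates 2 and 3, again without a test because the bulge difference is part of it. In WT skin, where G9a was intact, Mt4 was lower in bulge than in IFE cells by 3.49 on the log2 scale (difference -3.49, SE 0.53, limma adjusted p = 0.000337). This comparison shares the 3 bulge WT arrays with the one in which Mt4 was chosen.

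Among the bulge cKO arrays Mt4 had the same order as the mean of markers of keratinocyte differentiation, and in bulge WT, IFE WT and IFE cKO it did not. In bulge WT the Mt4 signals lay close together, from 5.29 to 5.57, and below the array medians. The mean log2 signal of 17 epidermal differentiation genes was 7.21, 8.93, 8.65 and 8.17 on bulge cKO replicates 1 to 4. It was 7.26, 6.75 and 7.09 on bulge WT replicates 1 to 3, where replicate 2 had the lowest marker mean and an Mt4 signal of 5.57, level with that of replicate 1. Krt1, a keratin of suprabasal cells, read 9.36, 11.93, 11.75 and 11.31 on these cKO arrays and 9.41 to 9.87 on bulge WT arrays. The differentiation genes read 8.95, 8.32 and 8.48 on IFE WT replicates 1 to 3, and 8.75, 9.13, 9.04 and 8.89 on IFE cKO replicates 1 to 4. In IFE WT both were highest on replicate 1, with the lowest Mt4 signal on replicate 3 and the lowest marker mean on replicate 2. The IFE cKO replicates with the highest Mt4 signals, 1 and 4, had the lowest marker means of that group. Krt1 alone was highest on these 2 replicates, with 12.55, 12.19, 12.06 and 12.38 on IFE cKO replicates 1 to 4. On IFE WT replicates 1 to 3 it read 12.37, 11.84 and 12.03. The mean of 12 bulge stem cell markers was 10.00, 9.17, 9.35 and 10.28 on bulge cKO replicates 1 to 4 and 10.29 to 10.49 in bulge WT. Replicate 4 read 7.90 for Mt4, 8.17 for the differentiation genes, 11.31 for Krt1 and 10.28 for the bulge markers. In bulge cKO cells the differences of the 17 differentiation genes ran from 0.25 to 2.32 (median 1.18). By limma 4 of the 17 were called higher, with 13 at an unadjusted p under 0.05. The differences of the 12 bulge markers ran from -1.81 to -0.14 (median -0.60), with 0 called and 7 at an unadjusted p under 0.05. Of all 17097 genes 3.84% passed, and 4390 were at an unadjusted p under 0.05. The part of differentiated keratinocytes in the Mt4 difference was not tested, and in bulk RNA more cells of a type and more RNA per cell cannot be told apart.

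**Figure D2:**
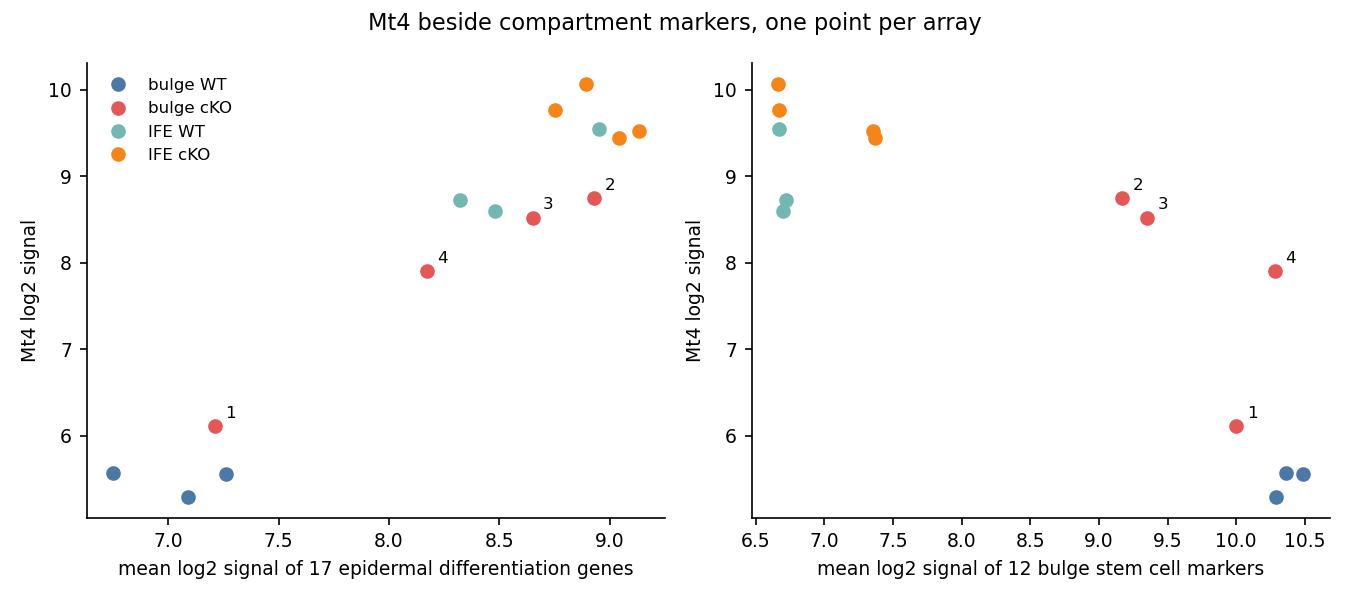
Mt4 log2 signal (vertical axes) against the mean log2 signal of 17 epidermal differentiation genes (left) and of 12 bulge stem cell markers (right), with a point for each array, coloured by group and numbered by replicate for bulge cKO. Bulge cKO replicate 1 (Mt4 6.11) lies near the bulge WT arrays on the left, and replicates 2, 3 and 4 (8.75, 8.52 and 7.90) near the IFE arrays.

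Among markers of other skin cells, those of antigen presenting cells were the main ones called higher in bulge cKO. Of all genes, 3.84% passed between cKO and WT in bulge cells and 1.98% were called higher in cKO. An unadjusted p under 0.05 was reached by 4390 of the 17097 genes. The mean of 8 Langerhans and antigen presenting cell markers was 6.74 ± 0.33 (SD, n = 4) on bulge cKO arrays. It was 5.89 ± 0.10 (SD, n = 3) on bulge WT arrays. The differences of the 8 ran from 0.39 to 2.35, with 5 called higher in cKO and 8 at an unadjusted p under 0.05 by limma. The mean of 6 T cell markers was 5.56 to 6.61 against 5.27 to 5.53, with 0 of 6 past limma's threshold and 6 at an unadjusted p under 0.05. Fibroblast markers averaged 5.16 to 5.91 in bulge cKO and 4.98 to 5.22 in bulge WT. Melanocyte markers averaged 5.39 to 5.59 and 5.28 to 5.52. Endothelial markers, all 4 with a mean signal below the array medians, averaged 5.26 to 5.39 and 5.22 to 5.33. Of these 3 lists 1 gene, the endothelial Emcn (0.28), was called. The bulge ranges of all 3 overlapped between genotypes. The part of these cells in the members' values was not tested.

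The genes whose signal was most like that of Mt4 were ranked by Pearson's r over the 14 arrays after the mean of each compartment was subtracted. They were Oas1f (0.98), of the oligoadenylate synthetase family, Arc (0.98), known as an immediate early gene of neurons, Tfap2c (0.97), a transcription factor of keratinocytes, the anion exchanger Slc26a3 (0.97) and the membrane protease Tmprss4 (0.97). Bulge WT minus IFE WT differences were -3.20 for Oas1f, -3.30 for Arc, -2.73 for Tfap2c, -2.83 for Tmprss4 and -0.03 for Slc26a3. Slc26a3 thus lacked the compartment difference of Mt4, and its signals ran from 4.64 to 5.13 over all arrays. These values describe arrays that share the shift of bulge cKO replicates 2 and 3.

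Mt1, the general metallothionein, had a steady and very high signal on its main probe set, at the 99.5th percentile of probe sets or higher on every array. Bulge WT replicates 1 to 3 read 11.83, 11.81 and 11.87, and bulge cKO replicates 1 to 4 read 11.82, 11.50, 11.53 and 11.75. IFE WT replicates 1 to 3 read 11.75, 11.79 and 11.72, and IFE cKO replicates 1 to 4 read 11.70, 11.69, 11.70 and 11.64. The lowest values were on bulge cKO replicates 2 and 3, where Mt4 was highest for bulge cells, and cKO replicate 1 lay within the bulge WT range. In bulge cells the difference between cKO and WT was -0.19 (SE 0.07, limma adjusted p = 0.126). Without bulge cKO replicates 2 and 3 it was -0.05 (adjusted p = 0.786). It was -0.24 without bulge cKO replicate 1, with an adjusted p of 0.0431, and the adjusted p ranged from 0.0431 to 0.312 over the fits that left out 1 array. In IFE cells it was -0.07 (SE 0.07, adjusted p = 0.805), and bulge and IFE WT differed by 0.08 (SE 0.07, adjusted p = 0.434). The highest signal of any probe set on these arrays was 13.09, and whether so bright a probe set reads differences in proportion was not tested.

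The other Mt1 probe set was dimmer and far more variable. Its bulge WT signals were 9.34, 8.66 and 10.01, and those of bulge cKO 9.64, 9.08, 8.64 and 8.67. Its IFE WT signals were 9.10, 8.44 and 7.92, and those of IFE cKO 7.48, 9.50, 9.28 and 8.81. All groups overlapped on it. Its cKO minus WT difference was -0.33 in bulge (SE 0.48) and 0.28 in IFE (SE 0.48), so the probe sets of Mt1 differed in sign in IFE cells, and neither passed. The main one is of a type (s_at) whose probes can match several transcripts. Over the 14 arrays with compartment means subtracted, the main Mt1 probe set had r = -0.89 with Mt4. The genes most like Mt1 by this measure were the transcription factor gene Creb5 (0.96), the glycosyltransferase gene Galnt18 (0.95), Rbm12b1 (0.94), the kinase gene Eif2ak4 (0.94) and the autophagy receptor gene Tax1bp1 (0.94). Their bulge WT minus IFE WT differences, in this order, were 1.98, 1.09, 0.43, 0.57 and 0.48, against 0.08 for Mt1. These r values too describe arrays that share the shift of bulge cKO replicates 2 and 3.

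Mt3, best known from the brain, read 7.06, 7.02 and 7.17 in bulge WT and 7.09, 7.35, 7.22 and 7.10 in bulge cKO. It read 7.14, 6.99 and 7.12 in IFE WT and 6.93, 7.01, 6.84 and 6.76 in IFE cKO. The bulge groups overlapped, and so did the IFE groups. Its differences between cKO and WT were 0.11 in bulge (SE 0.08, limma adjusted p = 0.379) and -0.20 in IFE cells (SE 0.08, adjusted p = 0.36). The bulge value was 0.01 without bulge cKO replicates 2 and 3 (adjusted p = 0.976). The difference of these effects was 0.30 (SE 0.11, adjusted p = 0.268), with an unadjusted p of 0.0155. Bulge and IFE WT cells differed by 0.00 (95% interval -0.18 to 0.18). The genes next to the cluster were looked up after these values were seen, and neither Bbs2 (0.02 in bulge, 0.11 in IFE) nor Nup93 (0.12 and -0.13) passed between cKO and WT.

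Mtf1, the zinc sensor, separated the compartments. Bulge WT replicates read 8.85, 8.80 and 8.67 and bulge cKO replicates 8.62, 8.71, 8.75 and 8.74. IFE WT replicates read 9.14, 8.97 and 9.59 and IFE cKO replicates 9.31, 9.02, 9.05 and 9.06. On this main probe set every bulge array lay below every IFE array, and the genotypes overlapped within each compartment. In WT cells Mtf1 was lower in bulge than in IFE (difference -0.45, SE 0.13, limma adjusted p = 0.0161), with -0.40 and an adjusted p of 0.0601 without bulge WT replicate 3, and -0.28 (adjusted p = 0.0416) without IFE WT replicate 3. The dimmer Mtf1 probe set had -0.23 (adjusted p = 0.0019 over all probe sets). On it the IFE cKO arrays (6.58 to 6.74) lay below the IFE WT arrays (6.75 to 6.80). That difference was -0.12 (limma adjusted p = 0.31, unadjusted p = 0.0132). Bulge cKO arrays reached 6.60 on it and so overlapped with IFE cKO arrays. On the main probe set the cKO minus WT differences were -0.07 in bulge (SE 0.12, adjusted p = 0.732) and -0.12 in IFE (SE 0.12, adjusted p = 0.805). The bulge value was -0.10 without bulge cKO replicates 2 and 3.

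Slc30a1, the exporter induced by zinc through Mtf1, read 7.25, 7.26 and 7.48 in bulge WT and 7.57, 7.58, 7.55 and 7.53 in bulge cKO. It read 7.78, 7.59 and 7.52 in IFE WT and 7.75, 7.74, 7.74 and 7.72 in IFE cKO. The 4 bulge cKO arrays lay above the bulge WT arrays, narrowly above WT replicate 3, and the IFE groups overlapped. Slc30a1 was lower in bulge WT than in IFE WT (difference -0.30, SE 0.07, limma adjusted p = 0.0056). Between cKO and WT the bulge difference was 0.23 (SE 0.07, adjusted p = 0.0703) and the IFE difference 0.11 (SE 0.07, adjusted p = 0.608). The bulge value was 0.22 (adjusted p = 0.399) without bulge cKO replicates 2 and 3. It was 0.31 and passed without bulge WT replicate 3 (adjusted p = 0.026), and the adjusted p lay between 0.026 and 0.243 over the fits that left out 1 array. The other probe set gave 0.12 in bulge (adjusted p = 0.423) and -0.26 between the compartments (adjusted p = 0.0653).

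Slc39a1, the importer, read 9.74, 9.91 and 9.52 in bulge WT and 9.46, 9.43, 9.56 and 9.70 in bulge cKO. It read 9.88, 10.02 and 9.73 in IFE WT and 9.91, 9.58, 9.83 and 10.12 in IFE cKO. All 4 groups overlapped with their neighbours in the order of means, from bulge cKO (9.54) through bulge WT (9.72) and IFE cKO (9.86) to IFE WT (9.88). The differences were -0.19 in bulge (95% interval -0.46 to 0.09), -0.02 in IFE (-0.29 to 0.26) and -0.15 between the WT compartments (-0.45 to 0.14), none past limma's threshold (adjusted p = 0.359, 0.98 and 0.421). The bulge difference was -0.15 without bulge cKO replicates 2 and 3.

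Counted together, 3 of 6 measured members (Mt4, Mtf1 and Slc30a1) were called lower in bulge than in IFE cells of WT skin. Of all genes 35.1% passed there (18.4% higher and 16.6% lower in bulge). Mt4 was chosen with its rise over the same bulge WT arrays known, so its call is not independent of that choice. Of the 5 members other than Mt4, Mtf1 and Slc30a1 passed. In bulge cells 0 of the 5 members other than Mt4 passed between cKO and WT by limma, with 2 at an unadjusted p under 0.05, where 3.84% of all genes passed (1.98% higher and 1.85% lower in cKO). In IFE cells 0 of 6 passed, with 1 at an unadjusted p under 0.05, where 0.497% of all genes passed (0.322% higher and 0.175% lower). The difference of effects passed for 0 of the 5 members other than Mt4, with 1 at an unadjusted p under 0.05, and for 0.105% of all genes (0.0234% positive and 0.0819% negative). Of all 17097 genes, an unadjusted p under 0.05 was reached by 4390 in bulge cells and 1876 in IFE cells. For the difference of effects it was reached by 2404. The medians of the tested members were -0.23, -0.07, -0.04 and 0.05 in these 4 comparisons, and those of all genes -0.01, 0.01, -0.01 and 0.02. The comparisons share control arrays, so they are not independent of each other.

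**Figure D3:**
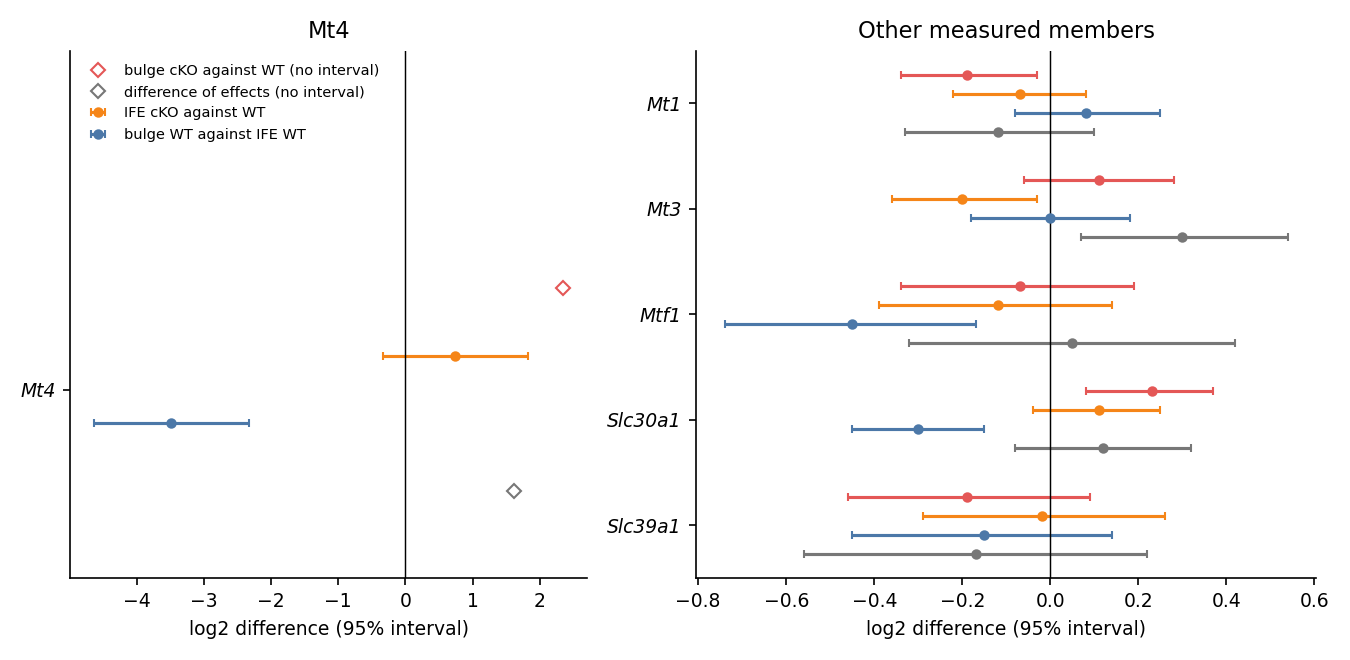
Log2 differences (horizontal axes) of Mt4 (left) and of the other 5 measured members (right) in the 4 comparisons, first group minus second, with limma's 95% intervals. Mt4 has open diamonds without an interval where the bulge difference between cKO and WT, known when the genes were chosen, enters. It lies at 2.35 in bulge cells and at -3.49 between the WT compartments, while the values of the other 5 lie between -0.45 and 0.30.

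Other zinc transporters differed between the compartments in both directions. They were 22 genes, from the Slc30 family that moves zinc out of the cytosol and the Slc39 family that moves it in. In bulge against IFE cells of WT skin 6 were called higher and 5 lower, or 4 and 6 after median centring of the arrays. Of all genes 35.1% passed, and the median difference of the 22 was 0.04. Slc39a6 read 8.52, 8.67 and 8.35 in bulge WT and 9.80, 9.72 and 10.10 in IFE WT (difference -1.36, SE 0.19, limma adjusted p = 0.00017). Slc39a8, an importer also of manganese and cadmium, read 11.22, 10.91 and 10.82 in bulge WT and 10.11, 9.99 and 9.71 in IFE WT (difference 1.05, SE 0.16, adjusted p = 0.000288). The groups did not overlap for either gene. Slc39a13 (0.95), Slc39a10 (0.41) and Slc30a6 (0.51) were higher in bulge cells and Slc30a2 (-0.43) was lower. Slc30a2, counted among the 5 called lower, was dim, with signals of 4.83 to 5.59 over all arrays. The lowest median of any array was 5.76, so the filter on dim genes left Slc30a2 out. How much of its signal is background is unknown, which limits its difference. Slc30a7 was lower by 0.23 (difference -0.23), but had 0.25 as the mean of its probe sets and 0.73 on the most variable one, both past the threshold, and its call was lost without bulge WT replicate 3 or IFE WT replicate 3 (adjusted p = 0.0956 and 0.106).

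Between cKO and WT bulge cells, 2 of these 22 importers and exporters passed, both lower in cKO and both importers, where 3.84% of all genes passed. Both calls were lost with cyclic loess normalisation, which gave Slc39a13 -0.25 (adjusted p = 0.0704) and Slc39a10 -0.13 (adjusted p = 0.0871). Slc39a13, which releases zinc from vesicles and the Golgi, read 8.86, 8.95 and 8.85 in bulge WT and 8.59, 8.40, 8.51 and 8.71 in bulge cKO (difference -0.34, SE 0.07, limma adjusted p = 0.0316). Slc39a10, a gene that Mtf1 is known to repress, read 8.41, 8.26 and 8.33 in bulge WT and 8.16, 8.05, 8.08 and 8.20 in bulge cKO (difference -0.21, SE 0.05, adjusted p = 0.043). The cKO arrays lay below the WT arrays for both genes. Without bulge cKO replicates 2 and 3 the differences were -0.24 and -0.16 (adjusted p = 0.259 and 0.372). In IFE cells 0 of the 22 passed limma's threshold, with 2 at an unadjusted p under 0.05, where 0.497% of all genes passed. An unadjusted p under 0.05 was reached by 1876 of the 17097 genes in IFE cells. There Slc39a13 had -0.12 and Slc39a10 0.07.

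**Figure D4:**
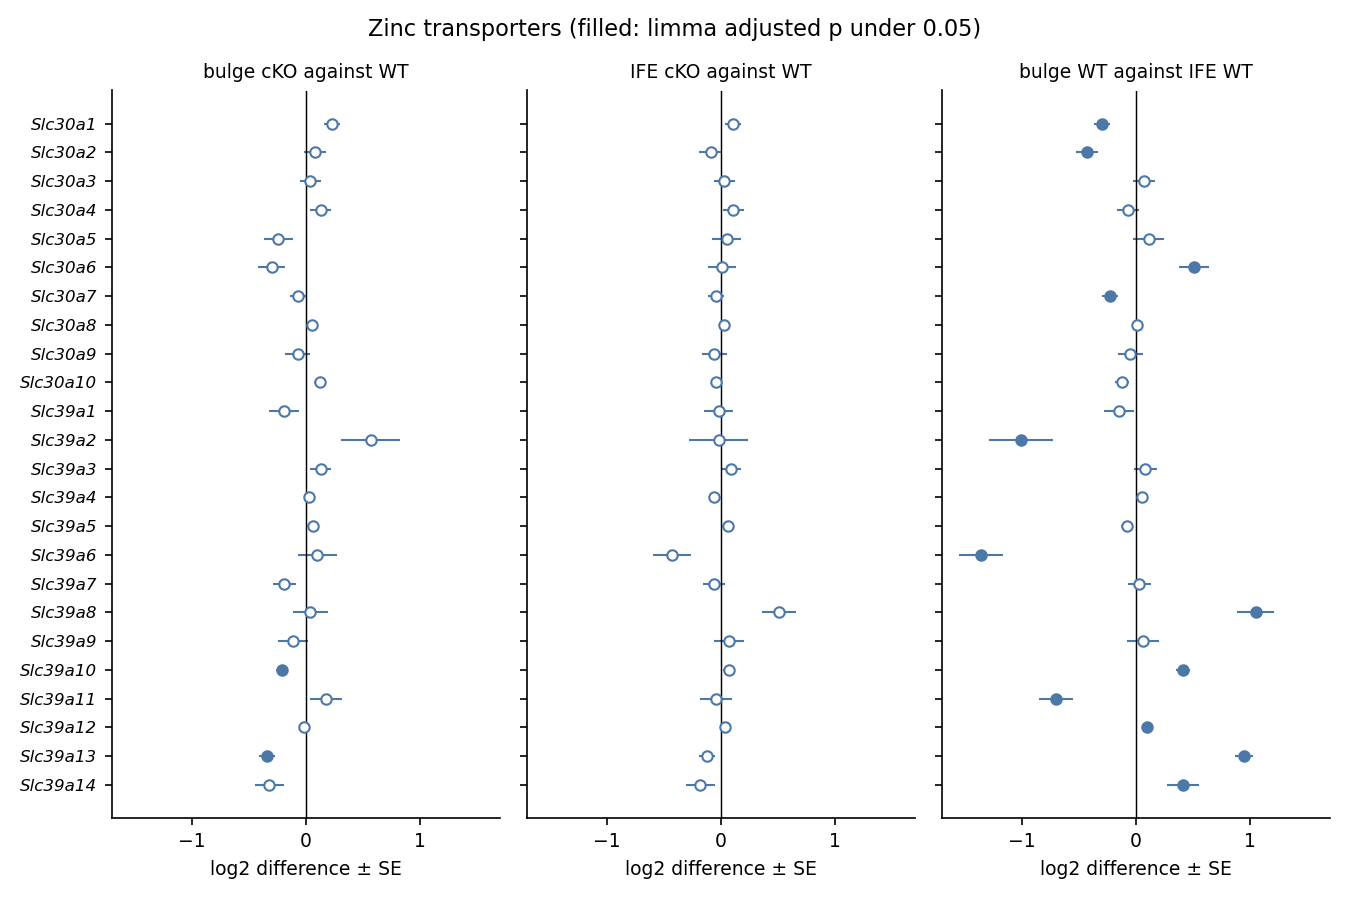
Log2 differences with limma's SE (horizontal axes) of 24 zinc transporters (vertical axis) in 3 comparisons, first group minus second, filled where the adjusted p was under 0.05. Between the WT compartments the values run from -1.36 (Slc39a6) to 1.05 (Slc39a8), and in bulge cells Slc39a10 and Slc39a13 are the filled ones, at -0.21 and -0.34.

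Copper handling genes, whose products share metallothioneins as a copper store, included 2 of 9 called higher in bulge cKO cells, where 1.98% of all genes were. Atp7a, a copper pump, read 7.35, 7.36 and 7.35 in bulge WT and 7.45, 7.75, 7.71 and 7.60 in bulge cKO (difference 0.28, SE 0.07, limma adjusted p = 0.0392). Slc31a2, a copper transporter of endosomes, read 7.93, 7.84 and 7.87 in bulge WT and 8.01, 8.40, 8.31 and 8.17 in bulge cKO (difference 0.35, SE 0.08, adjusted p = 0.0414). For both the cKO arrays lay above the WT arrays, with replicate 1 lowest and replicate 2 highest among the cKO arrays, as for Mt4. Without bulge cKO replicates 2 and 3 the differences were 0.18 and 0.21 (adjusted p = 0.34 and 0.333). In WT skin, where 35.1% of all genes passed, 5 of the 9 did, 1 higher and 4 lower in bulge cells. Both were lower in bulge than in IFE cells, Atp7a by 0.34 and Slc31a2 by 0.54 (differences -0.34 and -0.54). So was the copper importer Slc31a1 (-0.79), while Sod1, the copper and zinc superoxide dismutase, was higher (0.98).

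The calls in bulge cKO cells rested on few arrays. Of all 51 genes of 6 lists on zinc exporters, zinc importers, other Mtf1 targets, copper, oxidative stress and the glucocorticoid response, 4 passed in bulge cells, the 4 genes just named, where 3.84% of all genes did. Without bulge cKO replicate 2 or 3, or bulge WT replicate 1 or 2, 0 of the 51 passed, and 10 passed without bulge cKO replicate 4. Without any single IFE array except IFE WT replicate 3, 1 or 2 passed, although the differences themselves then stayed the same. In IFE cells 0 of 51 passed limma's threshold, with 5 at an unadjusted p under 0.05, where 0.497% of all genes passed. An unadjusted p under 0.05 was reached there by 1876 of the 17097 genes.

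Other genes under Mtf1 and of stresses that induce Mt1 and Mt2 differed between the compartments of WT skin. Of 5 other Mtf1 targets, Csrp1 (0.58), Gclc (0.66) and Selenow (0.28) were called higher in bulge cells and 0 were called lower. Gclc encodes a subunit of the enzyme that starts glutathione synthesis. Gclc lost its call when replicate 2 or 3 of bulge WT, or replicate 1 or 3 of IFE WT, was left out (adjusted p up to 0.0951). Selenow lost its call when bulge WT replicate 1 or 2, IFE WT replicate 2 or 3, bulge cKO replicate 1 or 3, or IFE cKO replicate 2 or 3 was left out (adjusted p up to 0.159). Of 7 oxidative stress genes under the factor Nrf2, Nqo1 (0.94) and Gclm (1.12) were called higher and 4 lower, among them Txnrd1 (-1.41) and Srxn1 (-0.42). Of 8 glucocorticoid response genes, 4 were called higher, among them Zbtb16 (1.25), Sgk1 (0.65) and Fkbp5 (1.03), and Dusp1 was called lower (-0.43). Dusp1 lost its call without IFE WT replicate 1 (-0.39, adjusted p = 0.0526) and was -0.26 without bulge WT replicate 1 (adjusted p = 0.0407). In all, 16 of the 51 genes were called higher and 14 lower, where 35.1% of all genes passed. Among these 3 lists 0 of 20 genes passed between cKO and WT in bulge cells by limma, where 3.84% of all genes passed. An unadjusted p under 0.05 was reached by 7 of the 20 and by 4390 of all 17097 genes.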

How the data were processed

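Total RNA was converted to amplified, biotinylated cDNA for Affymetrix arrays, per the labels' protocols. The authors deposited log2 signals, 1 per probe set and array, made with RMA (background correction, quantile normalisation, summary over probes), per the submitters' processing notes. The version of RMA is not stated there.

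Of 45141 probe sets, 28898 had 1 gene symbol, 551 several and 15692 none in the platform annotation, updated through Entrez identifiers to RefSeq GRCm38.p6, which named 28689. Each of 17097 genes took the probe set with the highest mean over 14 arrays. No probe set was named for Mt2 alone. A mean per group was fitted to all arrays with limma 3.58.1 in R 4.3.3 (lmFit, eBayes, residual degrees of freedom 10). Tests were two-sided, with Benjamini-Hochberg adjustment over the 17097 genes, or over all probe sets where single ones were tested, and called at an adjusted p under 0.05. The model was tested on simulated data. Promoters came from RefSeq. Arrays have no read depth, so their number limits the precision.

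Members and lists were chosen with earlier results of these data known. The rule named all members, up to 4 called genes of each pathway list with the smallest p-values, and the 5 genes most like Mt4 and Mt1; Slc39a2, Slc39a11, Slc39a12 and Slc39a14 were ranked below this number. Bbs2, Nup93, Krt1 and Emcn were named after their values were seen. The alternatives tried were normalisation by cyclic loess or by median centring, keeping only genes above the median signal on at least 3 arrays, other choices of probe set, an intensity trend with robust fitting, only the groups compared, a replicate block and leaving out arrays. Testing every probe set by itself was added after seeing the data.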

Additional observations from a re-analysis of the deposited data

Results flagged for a closer look

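In groups of 4 arrays, 4 of 78 had an array far from the other 3, and chance flags about 1 in 20 groups. Mtf1 read 9.31 on IFE cKO replicate 1 and 9.02 to 9.06 on the other 3. The second probe set of Slc30a1 read 7.53 on bulge cKO replicate 3 and 7.41 to 7.42 on the others. Atp7a read 8.04 on IFE cKO replicate 3 against 7.89 to 7.91. Slc39a8 read 11.43 on bulge cKO replicate 4 against 10.87 to 10.93.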

How the results depend on the processing

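The difference of Mt4 between cKO and WT in bulge cells kept its sign under all alternatives run (1.53 to 2.91), and that between the WT compartments kept its sign and call. In bulge cells 1 other member passed with cyclic loess and 0 to 1 without single arrays. The 4 pathway genes called there became 2 with cyclic loess, the dim filter, the intensity trend or the replicate block, 0 with only the groups compared or without cKO replicates 2 and 3, and 0 to 10 without single arrays. The 656 genes called in bulge cells became 72 with only the groups compared, 116 without cKO replicates 2 and 3, and 116 to 2553 without single arrays. The 85 called in IFE cells became 48 with only the groups compared and 38 to 107 without single arrays. The 18 genes with a difference of effects became 6 with the dim filter, 3 without bulge cKO replicates 2 and 3, and 3 to 240 without single arrays. With the replicate number as a block these 3 counts were 412, 33 and 2. Between the WT compartments 1 member, Mt4, passed with only the groups compared, and 2 to 3, Mt4 among them, without single arrays. Same-numbered bulge and IFE arrays of the same genotype deviated with correlations from -0.57 to 0.25. Same-numbered cKO and WT arrays of the same compartment, which the block also joined, had -0.62 to 0.18. On the first principal component cKO replicates 2 and 3 stood apart from replicates 1 and 4 in both compartments. Whether same-numbered samples share an animal or a preparation was not tested. The block ended the calls of Slc39a13, Atp7a and Slc31a2 in bulge cells and of Gclc between the WT compartments.

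Between the WT compartments Selenow also lost its call with median centring or only the groups compared, Dusp1 with only the groups compared, Slc39a10 on its most variable probe set, and Slc30a7 with cyclic loess, the intensity trend or only the groups compared. Signs turned for values that had not passed: Mtf1 in bulge cells (0.01 with cyclic loess), Mt1 in IFE cells (0.10 as the mean of its probe sets, 0.28 on the more variable one), the difference of effects of Mt1 (0.02 without cKO replicates 2 and 3), and Mt3 between the WT compartments (-0.03 with cyclic loess, -0.04 with median centring, -0.05 to 0.03 without single arrays). Without single arrays Slc39a1 in IFE cells ran from -0.11 to 0.07, Mtf1 there from -0.25 to 0.06, and its difference of effects from -0.13 to 0.18. Slc30a7 between the WT compartments turned to 0.25 and 0.73 with other choices of probe set. The cause of these changes was not tested. Of 1167 values of members and named genes under alternatives, 1065 counted as unchanged, 84 lost and 3 gained a call, and 15 turned sign. Unchanged values kept their sign and side of the threshold. For the Mt4 differences given without a test, unchanged meant the same sign and a move smaller than the SD of bulge cKO (1.19). How far low signals, such as Mt4 in bulge WT cells, lie above background limits their differences.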
